A study of Mus musculus with 14 samples.

Results

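The FGF receptors, FGF ligands and feedback inhibitors described here are 10 genes, taken with every probe set that the platform annotation gives to them alone. The receptors are Fgfr1, Fgfr2, Fgfr3 and Fgfr4, the ligands Fgf2 and Fgf7, and the inhibitors Spry1, Spry2, Spry4 and Dusp6. They had 24 of the 34945 probe sets with 1 gene symbol, and 20 of the 24 passed the filter on dim signal, which asks for a value above the 40th percentile of its array on at least 4 of the 14 arrays. By gene, 9 of the 10 were tested among 13579 genes, and Fgf2 was not.

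The arrays held RNA of skeletal muscle precursor cells sorted from C57BL/6 mice as CD45-, Ter119-, Sca-1-, CD29+ and Cxcr4+, a gate meant to enrich satellite cells, the stem cells of skeletal muscle. The groups were young (2 months, 5 arrays), middle-aged (12 months, 4 arrays) and aged (24 months, 5 arrays), all of the same strain, with no treatment or altered allele named in the labels. Nothing in the labels tells whether the arrays of a group came from separate animals, so p-values measure only the spread between these samples, which may be technical in part. The comparison across ages asks which transcripts differ with age in these cells.

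Fibroblast growth factors bind receptor tyrosine kinases together with heparan sulphate and switch on the Ras and ERK cascade. That cascade induces its own inhibitors: Sprouty proteins act upstream, at the level of Ras and Raf, and Dusp6 is a phosphatase that removes the activating phosphates from ERK. In muscle, FGF2 is known to push satellite cells out of quiescence, Spry1 is known to help them return to it, and Fgfr1 and Fgfr4 are the receptors best known in myogenic cells.

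The arrays carried transcripts of the sorted cell type, beside those of other cell types. Pax7 and Myod1, which define myogenic precursors, each had a probe set above the 40th percentile on all 14 arrays, and no probe set of Ptprc (CD45) reached it on any array. Of the endothelial markers, Pecam1 did not reach it on any array, while 5 others (Kdr, Tek, Egfl7, Flt1 and Cldn5) were above it on all 14. Tnmd, a tendon cell marker, and Acta1, a myofibre marker, were also above it on all 14, so this bar alone does not tell the cell types apart. Array medians of the deposited intensity ran from 19.0 to 21.2. Within ages the arrays split into a set 1 with 8 arrays (young 1, 3 and 4, middle-aged 2, 3 and 4, aged 1 and 2) and a set 2 with 6 (young 2 and 5, middle-aged 1, aged 3, 4 and 5). The split was read from the leading principal component once each age mean had been subtracted, so it is defined by these same values. Fits within a set, or with the set as a term, take out part of the spread within ages by construction. Their p-values can be too small and are given as descriptions. The log2 3'/5' ratio of the Actb and Gapdh controls, which commonly rises as RNA degrades, was 3.81 to 5.05 on young arrays, 3.57 to 4.16 on middle-aged arrays and 2.89 to 4.16 on aged arrays.

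The promoters of 3 members are shown because their transcripts gave the called fall (Fgfr4), a lower value that missed the threshold (Spry1) and a higher one that missed it (Dusp6) in aged cells. Each is the 250 bases before the gene's start in RefSeq, build GRCm38.p6, plus strand, 5′ to 3′: chr13:55152568-55152817 for Fgfr4, chr3:37639697-37639946 for Spry1 and chr10:99262981-99263230 for Dusp6. Capitals mark matches on either strand to the E-box CANNTG, the site of myogenic factors such as Myod1, to CATTCC, the core site of TEAD factors, and to CCGGAA, a core site of ETS factors, which act downstream of ERK. No match overlapped another.
Fgfr4: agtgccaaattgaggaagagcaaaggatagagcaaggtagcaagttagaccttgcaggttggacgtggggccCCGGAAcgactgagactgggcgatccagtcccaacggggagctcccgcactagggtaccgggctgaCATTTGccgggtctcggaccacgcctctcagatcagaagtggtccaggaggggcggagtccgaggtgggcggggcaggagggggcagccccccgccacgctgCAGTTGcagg
Spry1: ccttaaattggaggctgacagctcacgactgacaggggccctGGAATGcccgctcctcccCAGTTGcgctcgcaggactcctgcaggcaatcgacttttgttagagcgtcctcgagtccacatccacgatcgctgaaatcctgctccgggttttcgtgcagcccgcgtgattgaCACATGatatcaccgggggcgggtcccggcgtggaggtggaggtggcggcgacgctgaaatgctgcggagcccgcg
Dusp6: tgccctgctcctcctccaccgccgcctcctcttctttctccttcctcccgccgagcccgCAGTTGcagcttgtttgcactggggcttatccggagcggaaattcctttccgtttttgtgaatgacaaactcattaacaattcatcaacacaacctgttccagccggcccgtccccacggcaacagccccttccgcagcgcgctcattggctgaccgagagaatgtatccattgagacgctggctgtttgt
The Fgfr4 window held an E-box 112 bases and another 10 bases before the start, and CCGGAA 178 bases before it. The Spry1 window held E-boxes at 190 and 76 bases and GGAATG, which is CATTCC on the other strand, at 208 bases, and the Dusp6 window held 1 E-box at 191 bases. Of 32851 RefSeq windows of this length, 66.2% held an E-box, 12.6% CATTCC and 12% CCGGAA, so an E-box sets no member apart. Windows were searched for 8 of the 10 members, all but Fgfr1 and Spry4. Beside the 3 shown, Fgfr2, Fgfr3, Fgf7 and Spry2 held 1 E-box each, and neither of the other motifs was found in those windows. A further window of Fgfr3 (chr5:33722056-33722305) and the window of Fgf2 held no match to any of the motifs.

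Fgfr4 was the member that fell with age. In aged against young cells 1 of the 9 tested members passed the test (limma's moderated test, Benjamini-Hochberg adjustment over all genes, adjusted p under 0.05), where 4.30% of all genes did, 1.25% by falling and 3.05% by rising, and that member was Fgfr4. Its brightest probe set (1418596_at) stood at log2 intensities of 11.05, 9.88, 11.05, 11.37 and 10.51 on young arrays 1 to 5. Middle-aged arrays 1 to 4 gave 9.80, 10.39, 9.61 and 10.27, and aged arrays 1 to 5 gave 9.16, 9.77, 9.04, 9.93 and 9.74. Of the 5 aged arrays, 4 lay below every young one, and the exception, aged array 4, was just above young array 2, the lowest of its group. The mean went from 10.77 ± 0.59 (SD, n = 5) to 9.53 ± 0.40 (n = 5), a log2 change of -1.24 ± 0.27 (SE) or 2.37-fold lower (adjusted p = 0.0147), with a 95% interval of -1.82 to -0.67. It ranked 25th in size among the 170 genes that fell. Bulk arrays cannot tell fewer cells that carry a transcript from less of it in each cell.

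**Figure D1:**
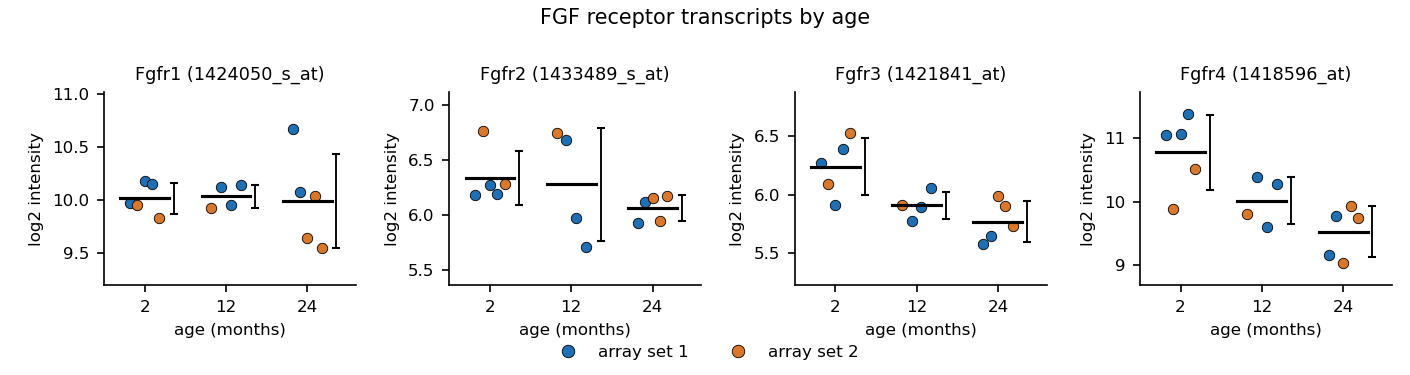
Log2 intensity of the probe set that represents each FGF receptor (vertical axes, scaled separately) on every array, by age in months. Points are arrays, coloured by array set, long lines are group means and brackets are 1 SD. Fgfr4 steps down from a mean of 10.77 to 10.02 and 9.53, with young arrays 2 and 5 of set 2 the lowest of their group, while Fgfr1 stays near 10 at each age.

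The fall of Fgfr4 was seen by several probe sets, which are not independent replicates because they measure the same transcripts on the same arrays. With every kept probe set tested as its own row, 3 of 20 member probe sets were called, against 3.10% of all kept probe sets (0.888% called lower), and all 3 belonged to Fgfr4. Beside the brightest one, 1427776_a_at changed by -0.91 ± 0.22 (adjusted p = 0.0364) and 1427777_x_at by -0.76 ± 0.17 (adjusted p = 0.0183), while 1427846_x_at gave -0.48 ± 0.17 and was not called (adjusted p = 0.157). A further Fgfr4 probe set, 1427845_at, lay below the 40th percentile on all 14 arrays. In 1427777_x_at every aged array, at most 5.76, lay below every young one, at least 5.82. Names ending in _a_at, _s_at or _x_at mark probes that can match more than 1 transcript, and without such probe sets the count was 1 (1418596_at). The count of 3 dropped to 0 when young array 1, 3 or 4 was left out and to 2 without aged array 1, 3 or 5. With 1 probe set per gene, the Fgfr4 call stayed below 0.05 without any single array, at most 0.0474 (without young array 3).

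**Figure D2:**
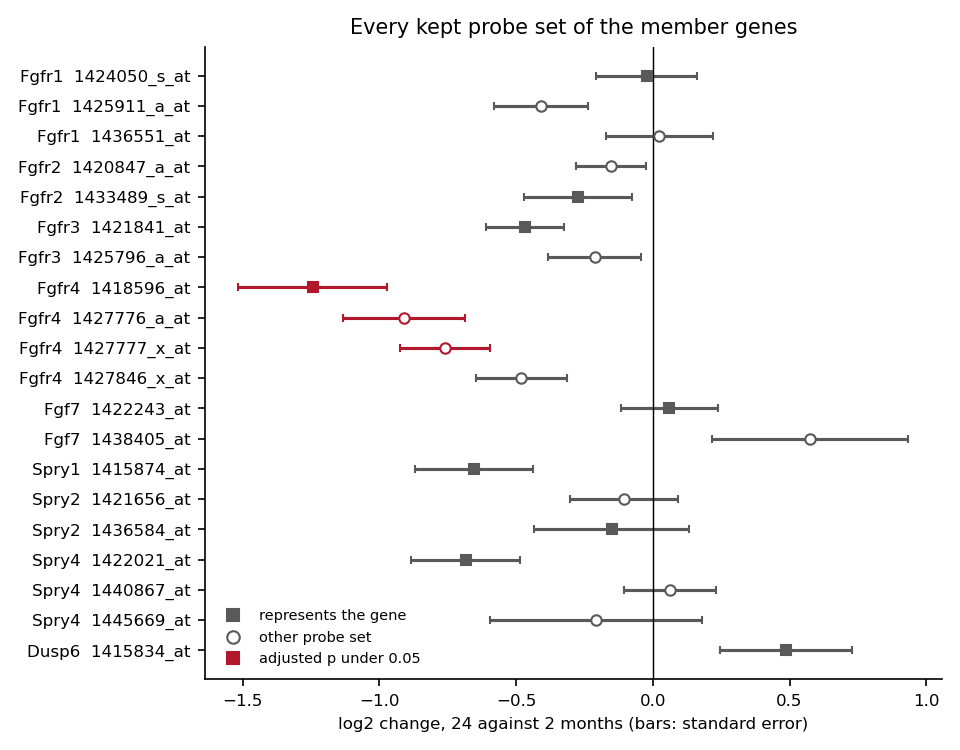
Log2 change from 2 to 24 months (horizontal axis) for each of the 20 kept probe sets of the members, with bars of 1 standard error. Filled squares represent the gene in the gene test, open circles are its other probe sets, and red marks an adjusted p under 0.05 among probe sets. The 3 red points belong to Fgfr4.

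Young Fgfr4 levels were higher on the 3 arrays of set 1, all at 11.05 or above, than on the 2 of set 2, at 9.88 and 10.51. Within set 1 the means were 11.16 at 2 months, 10.09 at 12 months and 9.46 at 24 months, and the fit of those 8 arrays gave -1.69 ± 0.27 in aged against young (adjusted p = 0.00824). Within set 2 they were 10.19, 9.80 and 9.57, with a change of -0.62 ± 0.34 that was not called (adjusted p = 0.585), although that fit of 6 arrays called 21 genes in all. Whether the change differs between the sets was not tested. Adding the set to the model, the change was -1.16 ± 0.25 (adjusted p = 0.0120). Because the sets were read from these same values, neither the set 1 fit nor the set term is independent support. The 3'/5' ratio was 4.71, 3.81, 3.93, 5.05 and 4.03 on young arrays 1 to 5. Middle-aged arrays 1 to 4 had ratios of 3.57, 4.16, 3.93 and 3.74. Aged arrays 1 to 5 had ratios of 4.16, 3.87, 3.18, 2.89 and 3.60. The Fgfr4 values of the same arrays are given above in this order. With the ratio as a covariate the Fgfr4 change was -0.97 ± 0.33 and the call ended (adjusted p = 0.126). Its part in the result was not tested beyond that fit.

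Neither age step of Fgfr4 passed on its own. Middle-aged against young cells gave -0.75 ± 0.29 (adjusted p = 0.195) and aged against middle-aged cells -0.49 ± 0.29 (adjusted p = 0.590). These comparisons share the middle-aged arrays. The late step minus the early step was 0.26 ± 0.51, with a 95% interval of -0.81 to 1.34, so the data do not place the fall in either step. Over the 3 ages together, Fgfr4 was the 1 member called by the F test (adjusted p = 0.0376), where 4.16% of genes were, and this call ended without young array 1, 3, 4 or 5, middle-aged array 4 or aged array 1 or 3.

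Fgfr3, a receptor known for restraining bone growth, had lower values with age but missed the threshold. Its brighter probe set stood at 6.28, 6.09, 5.91, 6.39 and 6.53 on young arrays and at 5.91, 5.78, 5.90 and 6.06 on middle-aged arrays. Aged arrays gave 5.58, 5.65, 5.99, 5.91 and 5.73. Of the aged arrays, 4 lay below the lowest young one, young array 3. The log2 difference of aged from young was -0.47 ± 0.14 (adjusted p = 0.0800), with a 95% interval of -0.77 to -0.17. The adjusted p was 0.0490 without young array 3, 0.0358 with the array set in the model and 0.0498 after quantile normalization. The set was read from these same values, so the fit with its term is no independent support. The dimmer probe set, 1425796_a_at, differed by -0.21 ± 0.17.

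Fgfr2, whose splice forms serve epithelial and mesenchymal cells, had 1 clearly measured probe set (1433489_s_at). Young arrays stood at 6.18, 6.77, 6.28, 6.19 and 6.28, middle-aged arrays at 6.75, 6.69, 5.98 and 5.71, and aged arrays at 5.93, 6.12, 6.16, 5.95 and 6.17. Every aged array lay below every young one, though young array 1 and aged array 5 nearly touched, and middle-aged arrays spanned both groups. The difference of aged from young was -0.27 ± 0.19 (adjusted p = 0.534), with a 95% interval of -0.69 to 0.14. A second kept probe set lay near the 40th percentile, above it on 10 of 14 arrays, and one more was above it on 1.

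Fgfr1, the other main receptor of myogenic cells, did not differ detectably with age in its brightest probe set. Young arrays stood at 9.97, 9.95, 10.18, 10.15 and 9.83 and middle-aged arrays at 9.92, 10.12, 9.95 and 10.14. Aged arrays spread more widely, at 10.67, 10.07, 9.64, 10.04 and 9.55, around the same centre. The difference of aged from young was -0.023 ± 0.18, and its 95% interval of -0.41 to 0.37 leaves out a change of the size seen for Fgfr4. The probe set 1436551_at differed by 0.024 ± 0.20, and the dimmer 1425911_a_at by -0.41 ± 0.17 (adjusted p = 0.262 among probe sets).

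The ligands were dim. The 1 probe set of Fgf2, the ligand best known for activating satellite cells, was above the 40th percentile on 2 of 14 arrays, middle-aged array 1 at 3.90 and aged array 1 at 4.05, and was not tested. Its values were 3.08 to 3.31 in young, 2.95 to 3.90 in middle-aged and 3.03 to 4.05 in aged samples, and the dim-signal threshold was 3.79 to 3.96. Middle-aged arrays 1 and 2 and aged arrays 1, 2, 3 and 4 lay above every young array, but all except 2 of these values were below the threshold. These arrays give no measure of Fgf2 made by other cells of the muscle.

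Fgf7, a ligand made by mesenchymal cells, had a probe set above the threshold on all 14 arrays (1422243_at), at 3.96 to 4.36 in young, 4.18 to 4.85 in middle-aged and 3.88 to 4.57 in aged samples. The groups overlapped, and the difference of aged from young was 0.06 ± 0.18 (adjusted p = 0.905), with a 95% interval of -0.31 to 0.43. Its other probe set, 1438405_at, stood at 6.13 on aged array 3 and between 3.53 and 4.14 on the 13 other arrays. Its age difference of 0.58 ± 0.36 includes that array and was not called (adjusted p = 0.496 among probe sets).

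Among the feedback inhibitors none passed the test, and the 4 genes did not share a direction. Spry1, the Sprouty best known in quiescent satellite cells, stood at 10.44, 10.12, 10.49, 10.95 and 10.11 on young arrays. Middle-aged arrays gave 10.25, 9.69, 10.03 and 10.12, and aged arrays 9.21, 10.16, 9.39, 10.01 and 10.06. All aged arrays but array 2 lay below every young one. The difference of aged from young was -0.65 ± 0.21 or 1.57-fold (unadjusted p = 0.00798, adjusted p = 0.108), with a 95% interval of -1.11 to -0.20. Within set 1 the difference was -0.94 ± 0.29 and within set 2 -0.30 ± 0.26, neither of them called (adjusted p = 0.0958 and 0.753).

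**Figure D3:**
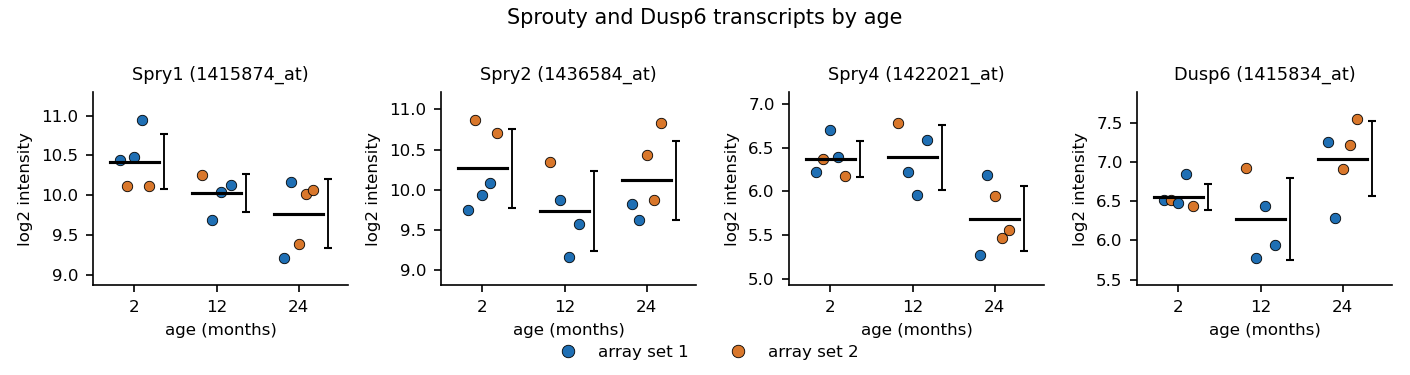
Log2 intensity of the probe set that represents each feedback inhibitor (vertical axes, scaled separately) on every array, by age in months. Points are arrays coloured by array set, long lines are means and brackets are 1 SD. Spry1 and Spry4 end lowest at 24 months (means of 9.77 and 5.69), Dusp6 ends highest (7.04), and Spry2 is higher on set 2 arrays at each age.

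Spry4, which blocks Ras activation by growth factor receptors, had its lowest values in aged cells. The probe set 1422021_at stood at 6.22, 6.37, 6.70, 6.39 and 6.18 on young and at 6.79, 6.23, 5.96 and 6.59 on middle-aged arrays. Aged arrays gave 5.28, 6.19, 5.94, 5.47 and 5.56, and only aged array 2 reached into the young range. Aged minus young was -0.68 ± 0.20 (adjusted p = 0.0679) and aged minus middle-aged -0.70 ± 0.21 (unadjusted p = 0.00432, adjusted p = 0.366), while middle-aged minus young was 0.019 ± 0.21. Without aged array 2 the aged against young difference was -0.81 ± 0.19 and passed (adjusted p = 0.0304).

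The probe sets of Spry4 disagreed. Against the -0.68 of 1422021_at, 1440867_at differed by 0.06 ± 0.17 and 1445669_at by -0.21 ± 0.39 in aged against young cells, and the fourth lay above the dim-signal threshold on 3 of 14 arrays. The mean of the kept probe sets gave -0.28 ± 0.19 (adjusted p = 0.506). The platform annotation does not say which transcripts each probe set reads.

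Spry2, a feedback inhibitor induced by many receptor kinases, was higher on set 2 arrays at each age. Young arrays stood at 9.74, 10.87, 9.94, 10.09 and 10.70, where the values of 10.87 and 10.70 are the set 2 arrays. Middle-aged arrays gave 10.35, 9.87, 9.16 and 9.57, the first of them in set 2, and aged arrays 9.83, 9.63, 10.43, 9.87 and 10.82, the last 3 in set 2. At equal age, set 2 was higher by a log2 difference of 0.77, and 6.36% of all tested genes had a set difference at least as large. This is a description, because the sets were drawn from the same values. Aged minus young was -0.15 ± 0.28 over all arrays and -0.30 ± 0.18 with the set in the model (adjusted p = 0.846 and 0.371), the former with a 95% interval of -0.75 to 0.45. The Spry4 probe set 1445669_at showed the same split, with means of 5.26 in set 1 and 6.65 in set 2 at 2 months, 5.73 and 6.57 at 12 months and 4.79 and 6.15 at 24 months.

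Dusp6, the ERK phosphatase, was the 1 of the 4 member feedback inhibitors whose representing probe set was higher in aged cells, though it was not called. Young arrays stood close together at 6.52, 6.51, 6.47, 6.85 and 6.44, middle-aged arrays at 6.93, 5.78, 6.44 and 5.94, and aged arrays at 7.26, 6.28, 6.92, 7.22 and 7.54. Of the aged arrays, 4 lay above the highest young one and array 2 below the lowest. Aged minus young was 0.49 ± 0.24 (adjusted p = 0.335, 95% interval -0.027 to 1.00) and aged minus middle-aged 0.77 ± 0.26 or 1.71-fold (unadjusted p = 0.00848, adjusted p = 0.402). The late step exceeded the early step by 1.06 ± 0.45 (unadjusted p = 0.0327, adjusted p = 0.373), which is not a call over all genes. Within set 1 aged minus young was 0.16 ± 0.30 and within set 2 0.75 ± 0.23.

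Over the 2 single age steps no member passed. In middle-aged against young cells 0 of 9 members were called, with 2.97% of genes called (1.22% lower, 1.75% higher). There 2 members, Fgfr3 and Fgfr4, had an unadjusted p under 0.05, as did 2217 of all 13579 genes. In aged against middle-aged cells limma called 0 genes of 13579, of which 1306 had an unadjusted p under 0.05, and with trended and robust variances the count was also 0. The members under 0.05 there were Spry4 and Dusp6, in opposite directions.

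**Figure D4:**
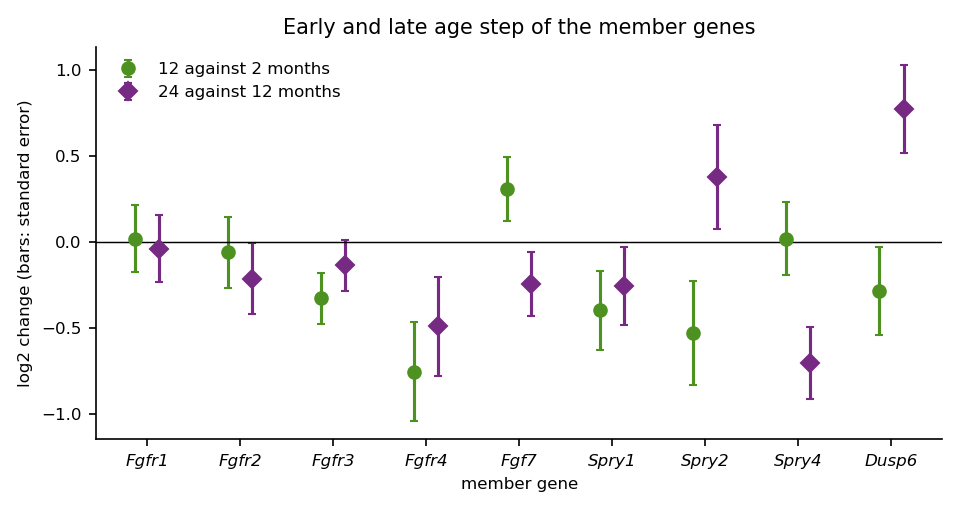
Log2 change of each tested member from 2 to 12 months (circles) and from 12 to 24 months (diamonds), with bars of 1 standard error. Fgfr4 is negative in both steps (-0.75 and -0.49), Spry4 is negative in the second alone (0.019 and -0.70) and Dusp6 changes sign (-0.29 and 0.77), and none of these single steps was called.

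Over 5 lists of the wider pathway, 3 of 73 tested genes were called in aged against young cells (4.11%, beside 4.30% of all genes), a share near the background. In middle-aged against young cells 3 of 73 were called as well (4.11%, beside 2.97% of all genes). Of 20 other FGF ligands 13 were tested: 1 rose and 0 fell in aged against young cells, with a median log2 change of -0.06 beside -0.05 for all genes. The riser was Fgf18, a ligand of cartilage and bone, which stood at 3.46 to 4.77 in young, 4.52 to 5.64 in middle-aged and 4.66 to 5.87 in aged samples. It was above the dim-signal threshold on 2 of 5 young arrays and on all older ones. It thus met the filter of 4 arrays only through the older groups, where it is high, and its call carries that limit. The fitted log2 change was 1.27 ± 0.30 (adjusted p = 0.0222), and no fold is given because most young values were not above the threshold. Leaving out young array 2 or 4, or aged array 2 or 3, ended that call (adjusted p = 0.0539 to 0.0621), as did the 3'/5' ratio as a covariate (1.09 ± 0.38, adjusted p = 0.133) and a fit within either set (adjusted p = 0.194 in set 1 and 0.186 in set 2).

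Fgf9, a ligand that signals to mesenchymal cells, rose in middle-aged cells. It stood at 4.39 to 5.05 in young, 5.71 to 7.43 in middle-aged and 4.74 to 6.63 in aged samples, so every middle-aged array lay above every young one. The rise at 12 months was 1.79 ± 0.34 or 3.47-fold (adjusted p = 0.0110). It was the 1 called gene of the 13 tested in its list in that comparison, where 2.97% of all genes were called. Within set 2, whose only middle-aged array is array 1, the rise was 1.62. At 24 months the difference from young was 0.97 ± 0.33 and missed the threshold (adjusted p = 0.119), but passed without aged array 3 (1.20 ± 0.30, adjusted p = 0.0374).

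Of 6 tested co-receptors and binding proteins, 1 fell and 0 rose in aged against young cells (median -0.0069). Flrt2, a membrane protein of a family that binds FGF receptors, stood at 8.47 to 8.76 in young, 7.45 to 7.75 in middle-aged and 6.74 to 8.44 in aged samples, and both older groups lay wholly below the young one. It fell by 1.06 on the log2 scale at 12 months (adjusted p = 0.0493) and by 1.00 at 24 months (adjusted p = 0.0389). Both calls are near the threshold: leaving out any young array ended both, and so did aged array 4 and middle-aged array 4. The 12-month call also ended without any other middle-aged array, and the 24-month call without aged array 1 or 5. Across those omissions the adjusted p reached 0.141 and 0.0987. Within set 1 the adjusted p was 0.0640 at 12 months and 0.107 at 24 months. Within set 2, whose only middle-aged array is array 1, the 24-month change did not pass.

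Of the 22 heparan sulphate core proteins and enzymes, which present FGFs to their receptors, 20 were tested and 0 were called in any of the 3 comparisons (median -0.09 in aged against young cells). In aged against young cells the smallest p-values of the list were those of Ext2, a chain-building enzyme (-0.56 ± 0.17, adjusted p = 0.0870), and Hpse, which cleaves the chains (-0.88 ± 0.32, adjusted p = 0.157). Of 24 adaptors and Ras-ERK relay genes 17 were tested and the rest are not analysed here. Gab1, a docking protein that carries receptor signals to Ras and PI3K, was the 1 member that fell in aged cells, and 0 rose (median -0.09). It stood at 9.58 to 10.10 in young, 9.09 to 9.51 in middle-aged and 8.93 to 9.37 in aged samples, with both older groups below every young array. The change at 24 months was -0.62 ± 0.14 or 1.54-fold lower (adjusted p = 0.0177), and its call ended when young array 1 or 4 was left out (adjusted p = 0.0514 and 0.0516), with the 3'/5' covariate (-0.56 ± 0.18, adjusted p = 0.0978), within set 2 (-0.38 ± 0.18, adjusted p = 0.535) or without probe sets of shared sequence (-0.72 ± 0.23, adjusted p = 0.104).

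Of 20 other ERK feedback and target genes 17 were tested and 0 were called in aged against young cells (median -0.16). Its smallest p-values there, beside that of Ccnd1, were those of Ier3, an early response gene (0.74 ± 0.23, adjusted p = 0.0859), and Dusp2, a phosphatase of ERK (-0.59 ± 0.21, adjusted p = 0.153). Spred1, a relative of the Sproutys (0.045 ± 0.22), and Etv5, an ETS factor induced by FGF signals (0.10 ± 0.32), were nearer 0. At 12 months 1 fell, Ccnd1, the cyclin that growth factors induce for entry into the cell cycle. It stood at 7.53 to 9.52 in young, 6.98 to 7.76 in middle-aged and 7.30 to 7.98 in aged samples. The change was -1.46 ± 0.35 or 2.75-fold lower (adjusted p = 0.0360), and at 24 months it was -1.06 ± 0.33 (adjusted p = 0.0920). The 12-month call ended on leaving out young array 1, 3 or 4 or any single middle-aged array (adjusted p = 0.0647 to 0.0960). It also ended after quantile normalization (0.0554) and with the covariate (0.0559). No set 2 test is given at 12 months, because array 1 is the only middle-aged array of that set. The 24-month difference passed within set 1 (-1.55 ± 0.20, adjusted p = 0.00332), with the array set in the model (-0.90 ± 0.25, adjusted p = 0.0389), for the mean of its probe sets (-1.03 ± 0.27, adjusted p = 0.0394) and without young array 2 (-1.38 ± 0.26, adjusted p = 0.00799). The fits that use the sets are descriptions, because the sets were read from these same values. With the 3'/5' covariate the 24-month difference was -0.44 ± 0.34 (adjusted p = 0.562).

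**Figure D5:**
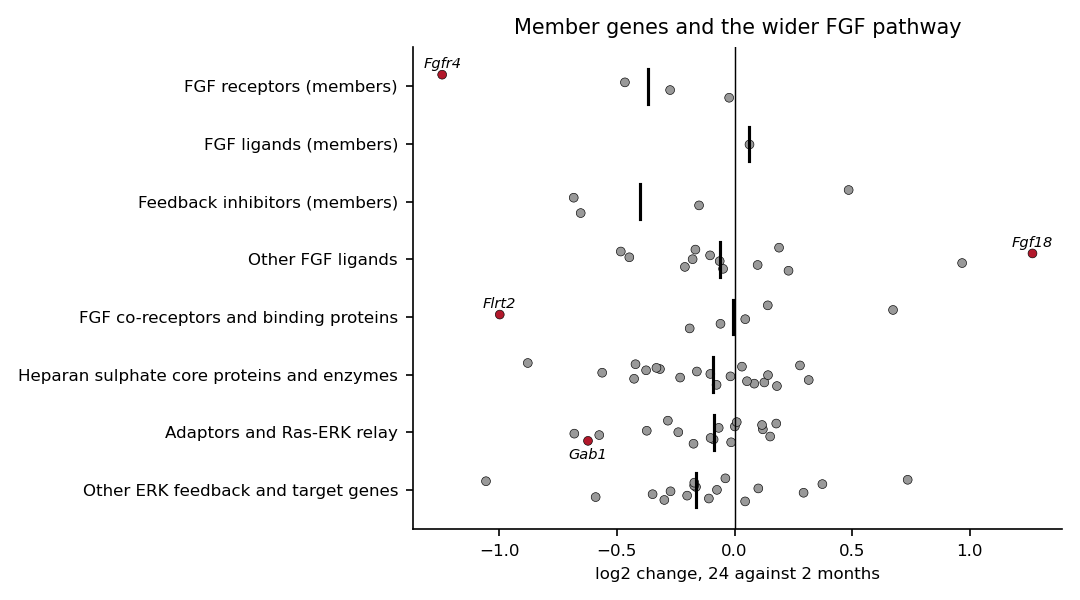
Log2 change from 2 to 24 months (horizontal axis) of every tested gene in the member lists and the 5 wider pathway lists. Each point is a gene, vertical ticks are list medians, and red points with names have an adjusted p under 0.05. The 4 named genes are Fgfr4, Fgf18, Flrt2 and Gab1, and list medians lie between -0.40 and 0.06.

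The genes with the most similar pattern were found by Pearson's r of log2 values over the 14 arrays, among all 13579 genes. For Fgfr4 these were Pnpla6, Pdia4, Twsg1 and Arhgef7 (r = 0.92, 0.90, 0.89 and 0.89), of which Pnpla6 fell in aged cells (-0.53, adjusted p = 0.0461). For Spry1 they were Cby1, Gli2, Tfg and Abat (r = 0.88, 0.88, 0.87 and 0.86), for Dusp6 Lamtor2, Stoml1, Pdgfa and Tmed9 (r = 0.90, 0.85, 0.85 and 0.84), and for Fgfr1 Phldb1, Dvl1, Pcif1 and Nop2 (r = 0.91, 0.89, 0.89 and 0.88). The arrays share age and array set, so these values are descriptions, given without a p.

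Some marker lists of the cell types that the sort could hold also moved with age, and their called counts stand beside 3.05% of all genes that rose and 1.25% that fell at 24 months, and 1.75% and 1.22% at 12 months. The gate's exclusion of CD45 and Sca-1 is meant to remove macrophages and most fibro-adipogenic and endothelial cells. Of 12 satellite cell markers, all tested, 2 fell (Calcr and Chrdl2) and 0 rose in aged against young cells. The value was lower in 10 of the 12, with a median log2 change of -0.42 beside -0.05 for all genes. The log2 of their summed intensity, which bright genes dominate, was 14.03 to 14.38 in young, 14.11 to 14.35 in middle-aged and 13.79 to 14.26 in aged samples. Of 9 tenocyte markers 8 rose at 24 months and 8 at 12 months, with summed levels of 11.94 to 13.56 in young, 15.11 to 16.07 in middle-aged and 14.86 to 15.93 in aged samples. Of 18 tested myofibre markers 13 rose and 1 fell at 24 months, against 0 and 1 at 12 months, with summed levels of 11.58 to 12.63 at 2 months, 11.76 to 12.66 at 12 months and 12.72 to 13.98 at 24 months. Tnmd of tendon cells and Acta1 of myofibres were above the dim-signal threshold on all 14 arrays, and Scx, a tendon factor, on 7.

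Of 11 tested fibro-adipogenic markers 2 rose at 24 months, of 10 pericyte markers 1 rose, of 8 Schwann markers 1 rose, of 6 macrophage markers 1 rose and of 7 endothelial markers 1 fell. Summed fibro-adipogenic levels ran from 14.08 to 14.72 in young, 14.82 to 15.40 in middle-aged and 14.25 to 15.27 in aged samples, and Pdgfra, their defining marker, was above the dim-signal threshold on all 14. Summed endothelial levels were 8.55 to 9.03, 7.99 to 8.45 and 7.65 to 9.74 at 2, 12 and 24 months, and pericyte levels 11.23 to 12.20, 11.30 to 11.83 and 11.48 to 12.24. Macrophage levels were 7.68 to 8.30, 8.11 to 8.90 and 8.48 to 9.85 at those ages, and Schwann levels 10.85 to 11.30, 11.08 to 11.54 and 11.23 to 11.78. Aged array 3, the one with high Fgf7 in 1438405_at, stood at 4.14 in the other Fgf7 probe set, within the range of its group. The part of these cell types in the changes of Fgfr4, Fgf9, Fgf18, Flrt2, Gab1 and Ccnd1 was not tested.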

How the data were processed

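RNA of 14 sorted cell samples was labelled with a 3' kit and hybridized to Affymetrix mouse arrays, per the labels' protocols. The authors deposited intensity values made with RMA, per the submitters' processing notes, a method that corrects background, normalizes across arrays and gives 1 value per probe set; the values themselves show a linear scale, and an RMA version was not given in the sources used here, nor was a build. Precision is limited by how many arrays there are.

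Here log2 of the deposited intensity was taken with no further normalization. Of 45101 probe sets, 64 controls, 932 with several genes and 9160 with none were left out. Probe sets above the array's 40th percentile (log2 3.79 to 3.96) on 4 or more arrays were kept (23887), and each gene took the brightest kept one by mean (13579 genes). Symbols came from the platform annotation, and 34741 of 34945 probe sets matched RefSeq by Entrez identifier, with 0 symbols changed. All 14 arrays entered 1 limma 3.58.1 fit (R 4.3.3) on age group, with moderated two-sided p-values, Benjamini-Hochberg adjusted over the genes tested, or over all kept probe sets where named; errors of changes are standard errors. The fit was tested on simulated data.

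The members, gene lists and tests were chosen with earlier results of these data known. The rule named all members, called pathway genes (up to 6 per list, or the 2 with the smallest p), and the 4 most similar genes of 4 members; Ier3, Dusp2, Spred1 and Etv5 were chosen outside it after their values were seen. The array sets were read from these values (first principal component within ages). Alternatives changed the filter, probe set choice, normalization, weights, variance model, covariate, block, array set and arrays used; the fits within array sets were chosen after seeing the data. No 2 arrays held identical values. Promoter sequences are RefSeq's (GRCm38.p6).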

Additional observations from a re-analysis of the deposited data

Results flagged for a closer look

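Of 60 groups of arrays examined (20 kept member probe sets at 3 ages), 4 held an array far from the others by Dixon's criterion, near the 1 in 20 that chance gives. Fgf7 in 1438405_at stood at 6.13 on aged array 3, with the next aged array at 4.10. Fgfr2 in 1433489_s_at stood at 6.77 on young array 2, with the next young array at 6.28. Dusp6 stood at 6.85 on young array 4, above 6.52 on the next. Fgfr1 in 1425911_a_at stood at 5.15 on middle-aged array 2, above 4.72 on the next.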

How the results depend on the processing

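The fall of Fgfr4 in aged against young cells kept its direction under every alternative run. The count of called members in that comparison was 2 after quantile normalization or with the array set in the model (Fgfr3 added), 0 with the 3'/5' covariate and 0 within array set 2, and 1 to 2 with each array left out. The count of called member probe sets, 3 in the reported fit, was 0 with the covariate and within array set 2, 1 without probe sets of shared sequence, and 0 to 3 with each array left out. In middle-aged against young cells the count of called member genes was 1 within array set 1, where Fgfr4 passed (-1.07 ± 0.24, adjusted p = 0.0298), and 0 otherwise. In aged against middle-aged cells and in the late minus early step that count was 0 throughout. Fits within set 2 are left out here, because array 1 is its only middle-aged array. The F test called 0 members without the dim filter, with the covariate and with the replicate block, and 0 to 2 with each array left out.

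The groups share replicate numbers, and same-numbered arrays' deviations from their group means correlated from -0.47 to 0.31 in 13 pairs, 5 of them over 0.1. Each of those 5 pairs joined arrays of the same array set, so these correlations cannot decide whether the numbers pair the samples. With the replicate block, Fgfr4 in aged against young cells was -1.24 ± 0.27 (adjusted p = 0.0315), while the calls of Flrt2 (0.0598), Gab1 (0.0630) and, at 12 months, Fgf9 (0.0540), Ccnd1 (0.0759) and Flrt2 (0.0790) ended. Further alternatives ended the 24-month Flrt2 call (no dim filter 0.0536, only the 2 groups compared 0.0808) and its 12-month call (0.0531 to 0.0848 in 5 settings), and only the 2 groups compared ended that of Ccnd1 (0.0574). With array weights, Fgf18 and Gab1 passed at 12 months (0.0188 and 0.0160), as did Gab1 within set 1 (0.0320) and Fgf18 without young array 3 (0.0468).

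Values near 0 changed sign without a call. Fgfr1, aged against young, was 0.024 without probe sets of shared sequence, 0.0046 with arrays centred on their median, 0.19 with the covariate, 0.048 with the set term and 0.27 within set 1. Fgfr1, middle-aged against young, was -0.046 for the mean of probe sets, -0.23 without shared sequence, -0.014 centred, -0.061 with the replicate block, -0.035 with the set term and -0.028 within set 1. Fgfr1, aged against middle-aged, was 0.26, 0.019, 0.044, 0.039, 0.084 and 0.30 without shared sequence, centred, with the covariate, with the block, with the set term and within set 1. Middle-aged against young, Fgfr2 was 0.025 for the mean of probe sets and 0.22 within set 2, Spry1 0.13 and Dusp6 0.45 within set 2, Ext2 0.066 for the mean, and Spry4 -0.013 centred, -0.052 with the covariate, -0.021 with the block and -0.18 within set 1. The set 2 values among these rest on a single middle-aged array, array 1. Fgf7, aged against middle-aged, was 0.045 for the mean. With each array left out, the ranges that crossed 0 were -0.19 to 0.089 for Fgfr1 and -0.023 to 0.15 for Fgf7 in aged against young cells, -0.029 to 0.058 for Fgfr1, -0.22 to 0.13 for Fgfr2 and -0.11 to 0.16 for Spry4 in middle-aged against young cells, and -0.21 to 0.071 for Fgfr1 in aged against middle-aged cells. The cause of these shifts was not tested. Array signal near background limits Fgf2, Fgf7 and Fgf18.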
